A study of Mus musculus with 4 samples.

Results

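This comparison sets mouse testis tissue kept in organ culture for 2 days against testis of the matching age that never left the animal. It covers every cell barcode of both libraries in which 500 or more genes were detected and no more than 20% of counts came from mitochondrial (mt-) genes. That rule kept 12423 of the 23670 barcodes that pass it in the whole series, 7130 from the culture and 5293 from the in vivo library. Both libraries came from Acr-Gfp tg mice (C57BL/6), which carry a green fluorescent protein gene under the promoter of the germ cell gene Acr. Acr itself was near 0 at these ages, at 0.0821 CPM in the germ-like cells of the culture and 0.0328 CPM in those at 9 dpp. The cultured tissue was removed at 7 days postpartum (dpp), freed of its capsule, divided into fragments and grown on 1.5% agarose under a silicone (PDMS) ceiling in α-MEM with 40 mg/mL AlbuMAX, a lipid-rich bovine albumin. The in vivo tissue was taken at 9 dpp and is treated as uncultured from its title, since the labels repeat the culture protocol on all 4 samples. The labels name no added hormone, no number of animals and no pooling. A second pair of libraries, a 7-day culture and 14 dpp testis of the same strain, is given beside some values and shares no library with the main pair.

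Each group is 1 library, so no difference below has a replicate check and no p-value is given. The culture and its library cannot be told apart. Counts are unique molecular identifiers (UMIs), 1 for each captured RNA molecule. UMIs were summed over all kept barcodes of a library and scaled to CPM, a gene's UMIs divided by the library's total and multiplied by 1e+06. A ratio is the log2 ratio of CPM plus 1, culture over in vivo. A gene was tested when the pair held at least 50 of its UMIs, and called when the ratio passed 2-fold. Because that minimum is on the sum of both sides, a gene of few UMIs can pass through 1 library alone, which bears most on classes with few cells, and no list is counted in the smallest class described, the pericyte-like cells. In these bulk sums, fewer cells of a type and less RNA per cell cannot be told apart, so values within cell classes stand beside the sums.

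A testis at this age holds seminiferous tubules in which Sertoli cells nurse the first waves of spermatogonia and early meiotic germ cells. Peritubular myoid cells wrap the tubules, and Leydig cells, blood vessels, macrophages and stromal cells lie between them. In the animal, pituitary FSH acts on Sertoli cells and pituitary LH on Leydig cells, while Sertoli cells signal to the interstitium through desert hedgehog and to germ cells through growth factors and retinoid metabolism.

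The 2 libraries differed in depth and makeup. The culture held 33799069 UMIs and the 9 dpp library 60474587, with medians of 3668.5 and 8760 UMIs per barcode. The pair shared 67 barcode sequences, 0.940% of the culture's barcodes. After removal of doublet calls, joint clustering gave 19 clusters that were named from fixed markers. Germ-like cells made up 42.2% (exact binomial 95% interval 41.0% to 43.4%) of the culture and 49.3% (47.9% to 50.7%) of the 9 dpp cells, and Sertoli-like cells 17.8% and 17.3%. Stromal or myoid-like cells were 36.0% of the culture's cells and 29.2% at 9 dpp, and they gave 33.4% and 16.2% of the UMIs. All intervals cover counting error only. Most clusters came almost wholly from 1 library. The Sertoli-like cells were 741 cells of cluster 7 and 478 of the shallow cluster 12 in the culture, against 877 of cluster 3 at 9 dpp. The stromal or myoid-like cells were mainly clusters 1 and 2 in the culture, against clusters 8 and 9 at 9 dpp. All of the 12 germ, 12 Sertoli, 10 stromal and 8 myoid markers had UMIs in both libraries, as the testis label requires, although the library preparation text in the labels speaks of female gonad tissue. The 10 macrophage markers summed to 28.0 CPM in the culture and 182 CPM at 9 dpp, and lymphocyte, neutrophil and mast cell markers stayed under 5 CPM in sum in both.

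Of 15144 tested genes, 683 (4.51%) were at least 2-fold higher in the culture and 568 (3.75%) at least 2-fold lower. The median ratio over all tested genes was -0.13, and list medians below are read against it. Scaling by DESeq2 size factors moved that median to 0.00 and gave 817 higher and 436 lower genes, and scaling by edgeR TMM factors moved it to -0.01 and gave 809 and 445. The inflammation list held 63 higher genes among 76 tested and the interferon and antigen presentation list 56 among 73, and neither list is described further. Some of their members also stand on other lists below and are counted there: Ptx3 and Tnfaip6 among wound genes, Lcn2 and Steap4 among iron genes, Csf1 among niche ligands and Socs3 among immediate early genes, all called higher.

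**Figure D1:**
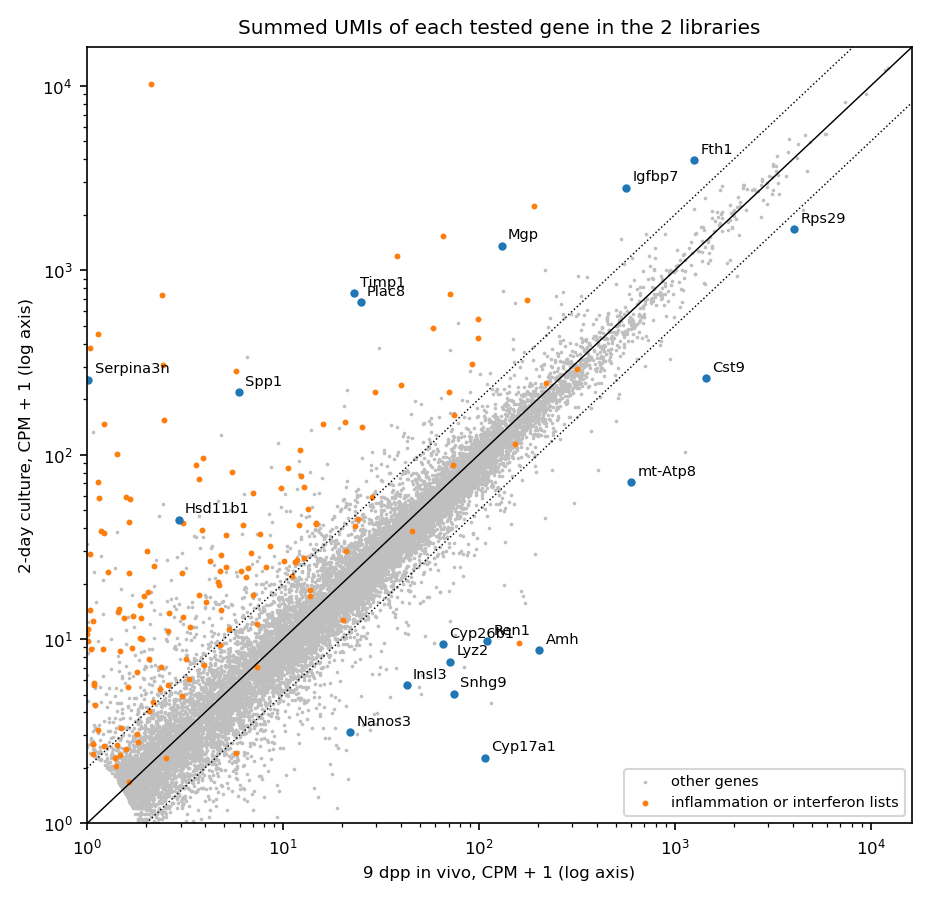
Each point is 1 tested gene, placed by its CPM plus 1 at 9 dpp (horizontal, log axis) and in the 2-day culture (vertical, log axis). The solid line marks equal levels, the dotted lines 2-fold, and orange points are genes of the inflammation and interferon lists. Timp1 at 750 against 22.1 CPM lies far above the line and Cyp17a1 at 1.27 against 107 CPM far below it.

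The highest ratios, leaving out mt- genes, predicted symbols and the inflammation and interferon lists, included 3 serine protease inhibitors of the Serpina3 family, Spp1 and Timp1. Serpina3n, a serine protease inhibitor, had 8603 UMIs (255 CPM) in the culture and 1 UMI at 9 dpp. Its neighbour in the same gene family, Serpina3g, had 131 CPM against 0.0661 CPM, and Serpina3f had 31.7 CPM against 0 UMIs, at least 638-fold higher when the 9 dpp library is set to a floor of 3 UMIs. These 3 genes belong to a cluster of near-identical copies, so reads could be split among them. Spp1 (osteopontin) stood at 217 CPM against 4.96 CPM, a 43.7-fold difference (exact 95% interval 38.9 to 49.2). Timp1, the inhibitor of matrix metalloproteinases, stood at 750 against 22.1 CPM, 34.0-fold higher (32.2 to 36.0). Plac8 had 668 against 23.9 CPM. Hsd11b1, which regenerates active glucocorticoid, had 43.5 against 1.93 CPM, 22.5-fold higher (18.6 to 27.4). The stromal or myoid-like cells held 86.6% of the culture's Timp1 UMIs and 90.2% of its Serpina3n UMIs. The other genes among the 15 highest were Apod, Lgals3bp, Wisp2, Cyp1b1, Slc36a2, AW112010, Ifi202b and Madcam1, with ratios from 4.13 for Madcam1 to 4.74 for Apod. Only members of the inflammation and interferon lists were left out, so other genes that respond to inflammation or interferon can stand among the 15.

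Under the same exclusions the 15 lowest ratios included Cyp17a1, Amh and Insl3, genes of hormone synthesis, as well as macrophage genes and very short transcripts. Cyp17a1, the enzyme that commits steroids to androgen synthesis, had 1.27 CPM in the culture and 107 CPM at 9 dpp, 83.7-fold lower in the culture (exact 95% interval 62.1 to 116). Amh, the anti-Müllerian hormone of immature Sertoli cells, had 7.69 against 203 CPM, 26.4-fold lower (23.3 to 29.96). Insl3, a Leydig cell peptide hormone, had 4.65 against 41.9 CPM. The macrophage complement genes C1qa, C1qb and C1qc and the lysozyme gene Lyz2 were also among the 15 lowest, C1qa with 0.740 against 20.4 CPM. The remaining lowest genes were Ren1, Snhg9, Bc1, Mirt1, Olfr889, Tbata, F13a1 and Phkg1, with ratios from -3.89 for Snhg9 to -2.94 for Phkg1.

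In Leydig-like cells genes of the later steps of androgen synthesis were lower and the gene of the first step was not. Of 18 tested genes of the steroid synthesis list, 6 were lower and 1 higher (background 3.75% and 4.51%), with a median of -0.37. In the 140 culture and 112 in vivo Leydig-like cells, 7 of 15 tested members were lower and 1 higher, where 8.18% and 4.59% of all genes tested in that class were. Within those cells Cyp17a1 fell from 3938 CPM at 9 dpp to 37.9 CPM in the culture. Insl3 stood at 131 CPM in the culture against 1449 CPM, and Hsd3b1, which makes progesterone, at 1123 against 3601 CPM. Lhcgr, the LH receptor, had 18.9 against 125 CPM, and Nr5a1, the steroidogenic transcription factor, 79.8 against 222 CPM. Cyp11a1, the enzyme that cuts the cholesterol side chain at the start of the pathway, stood at 3556 against 2679 CPM. Star, which brings cholesterol into mitochondria, had 384 against 693 CPM in this class, and Tspo, a protein of the mitochondrial outer membrane, 703 against 166 CPM. So the first enzyme stayed within 2-fold, while the later enzymes named here, the peptide hormone and the receptor were lower. The same cells had Cyp21a1, an enzyme best known from the adrenal cortex, at 0 UMIs in the culture against 141 UMIs in vivo.

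Renin differed between cell classes. Ren1, whose product starts the angiotensin cascade, fell from 3980 CPM at 9 dpp to 135 CPM in the culture's Leydig-like cells. In the pericyte-like cells, contractile cells on small vessels, it had 738 CPM (exact 95% interval 619 to 873) in the culture and 5.58 CPM (0.676 to 20.2) at 9 dpp. Those values rest on 56 and 55 cells. The 135 culture UMIs came from 18 of the 56 cells, and the cell with the most gave 26.7% of them, while at 9 dpp 2 of 55 cells had 1 UMI each. Summed over the library Ren1 was 12.5-fold lower in the culture (11.1 to 14.1). Nts, the neurotensin gene, also appeared in the pericyte-like cells of the culture, with 172 UMIs from 12 cells and 0 at 9 dpp, but 1 cell gave 45.9% of them.

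In Sertoli-like cells many genes of the Sertoli product list, which holds secreted, membrane and nuclear proteins, were lower. Of 25 tested Sertoli products, 12 were lower in the whole library and 2 higher (background 3.75% and 4.51%), with a median of -0.98. Within Sertoli-like cells 11 of 24 were lower and 1 higher, against 6.31% and 6.26% of all genes tested there, with a median of -0.88. Amh stood at 33.7 CPM against 751 CPM in this class. Inha, the inhibin alpha subunit that makes the FSH-suppressing hormone, had 620 against 1816 CPM, and Inhbb, a beta subunit, 56.1 against 146 CPM. Cst9, a cystatin made by immature Sertoli cells, had 1132 against 5317 CPM. Hsd17b1 and Hsd17b3, enzymes that convert weak to strong sex steroids, had 15.9 against 127 CPM and 26.1 against 135 CPM. Sertoli-like cells held 98.2% of the Hsd17b1 and 97.6% of the Hsd17b3 UMIs at 9 dpp. The losses of Amh and Inha were alike in both culture clusters, with Amh at 31.2 CPM in cluster 7 and 52.6 CPM in the shallow cluster 12.

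Of 14 tested genes of the gonadal transcription factor list 1 was called lower in the same cells and 0 higher, near the 6.31% and 6.26% of all genes tested there, with a median of -0.11. The lower one was Tsx, which the Sertoli product list also holds. Sox9, which drives Sertoli fate, had 511 CPM in the culture's Sertoli-like cells and 374 CPM in vivo, and Wt1 had 545 against 424 CPM. Gata4 had 140 against 153 CPM. Nr5a1, the steroidogenic factor, had 52.2 against 95.2 CPM and Dmrt1, which maintains male fate, 86.5 against 148 CPM, both lower but short of 2-fold. Over the library, 0 of the 19 tested gonadal transcription factors were at least 2-fold higher and 1, Tsx, was lower (background 4.51% and 3.75%). Clu, the secreted chaperone clusterin, stood at 8685 against 7139 CPM in Sertoli-like cells, so the loss of products was not shared by all of them.

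Several genes that respond to FSH or androgen were lower. Of 16 tested, 6 were at least 2-fold lower in the library and 1 higher (background 3.75% and 4.51%), with a median of -0.73. Within Sertoli-like cells 5 of 13 were lower and 2 higher, against 6.31% and 6.26% of all genes tested there, with a median of -0.78. Rhox5, a homeobox gene that depends on androgen, had 3.19 CPM in the culture's Sertoli-like cells and 37.0 CPM in vivo. Drd4, a dopamine receptor gene, had 5.68 against 73.6 CPM in Sertoli-like cells. Eppin, an epididymal protease inhibitor gene that Sertoli cells also express, had 79.0 against 259 CPM. Fshr, the FSH receptor, had 6.24 against 19.97 CPM. Cldn11, a tight junction protein of the blood-testis barrier, was not lower, at 1729 against 963 CPM. Trf, transferrin, which carries iron to germ cells, went up from 6.24 to 66.9 CPM. The Sertoli products and the FSH and androgen list share members, so their counts are not separate.

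Gdnf and Kitl, ligands that Sertoli cells send to germ cells, stayed within 2-fold in Sertoli-like cells. Gdnf, which maintains spermatogonial stem cells, had 9.98 CPM in the culture's Sertoli-like cells and 9.39 CPM in vivo. Kitl, the ligand of Kit, had 187 against 193 CPM there. Gdnf was lower in stromal or myoid-like cells, at 1.40 against 11.3 CPM. Over the library 2 of 13 tested genes of the GDNF, KIT and niche list were higher and 2 lower (background 4.51% and 3.75%). In Sertoli-like cells 4 of 10 were higher and 0 lower, against 6.26% and 6.31% of all genes tested there. Among them was Mdk, the growth factor midkine, at 708 against 137 CPM. Cxcl12, Csf1 and Kit were the others. Among 24 Wnt ligands and receptors 3 were higher and 0 lower in the library (background 4.51% and 3.75%), with a median of -0.16 and 16 of 24 ratios below 0. Classes differed in these counts, with 4 higher and 1 lower of 16 in Sertoli-like cells (background 6.26% and 6.31%) and 1 higher and 5 lower of 17 in stromal or myoid-like cells (background 5.85% and 6.84%), where the median was -0.62. Wnt4, a ligand known for its part in ovary development, had 30.3 against 0.722 CPM in Sertoli-like cells, and Lgr4, a receptor that amplifies Wnt signals, 146 against 40.6 CPM.

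Sertoli-like cells also had far fewer transcripts of mitosis. Of 27 mitosis genes tested in that class, 26 were at least 2-fold lower in the culture and 0 higher, against 6.31% and 6.26% of all genes tested there, with a median of -1.89. Top2a, which untangles chromosomes, stood at 10.9 CPM against 73.1 CPM. Ube2c, part of the machinery that degrades cyclins, had 12.6 against 97.8 CPM, and Cdk1, the mitotic kinase, 20.9 against 102 CPM. Bub1 alone fell short, at 8.45 against 12.0 CPM. DNA replication genes of the same cells moved less, with 2 of 27 lower, near the 6.31% of that class, and a median of -0.39. Mcm6, a helicase subunit, had 41.2 against 44.0 CPM. Ccnd2, a cyclin that starts the cell cycle, had 94.9 against 394 CPM. Without the shallow cluster 12 the mitosis median was -2.12 and the DNA replication median -0.59. That cluster had Top2a at 44.9 CPM and the deeper cluster 7 at 7.37 CPM, against 170 to 704 CPM in the germ-like clusters of the same library with values. The part of free RNA in the cluster 12 value was not tested. Leydig-like cells had 5 of 18 lower, where 8.18% of all tested genes were, but their median turned from -0.95 to 0.89 under separate clustering of the libraries. The stromal or myoid-like cells had 4 of 27 lower, where 6.84% of all tested genes were. Germ-like cells had a mitosis median of -0.01 with 0 of 27 genes called in either direction. The library as a whole had a median of -0.42 and 0 calls among 27 (background 4.51% higher and 3.75% lower). That median was -0.13 when both libraries were given the class shares of the 9 dpp library.

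**Figure D2:**
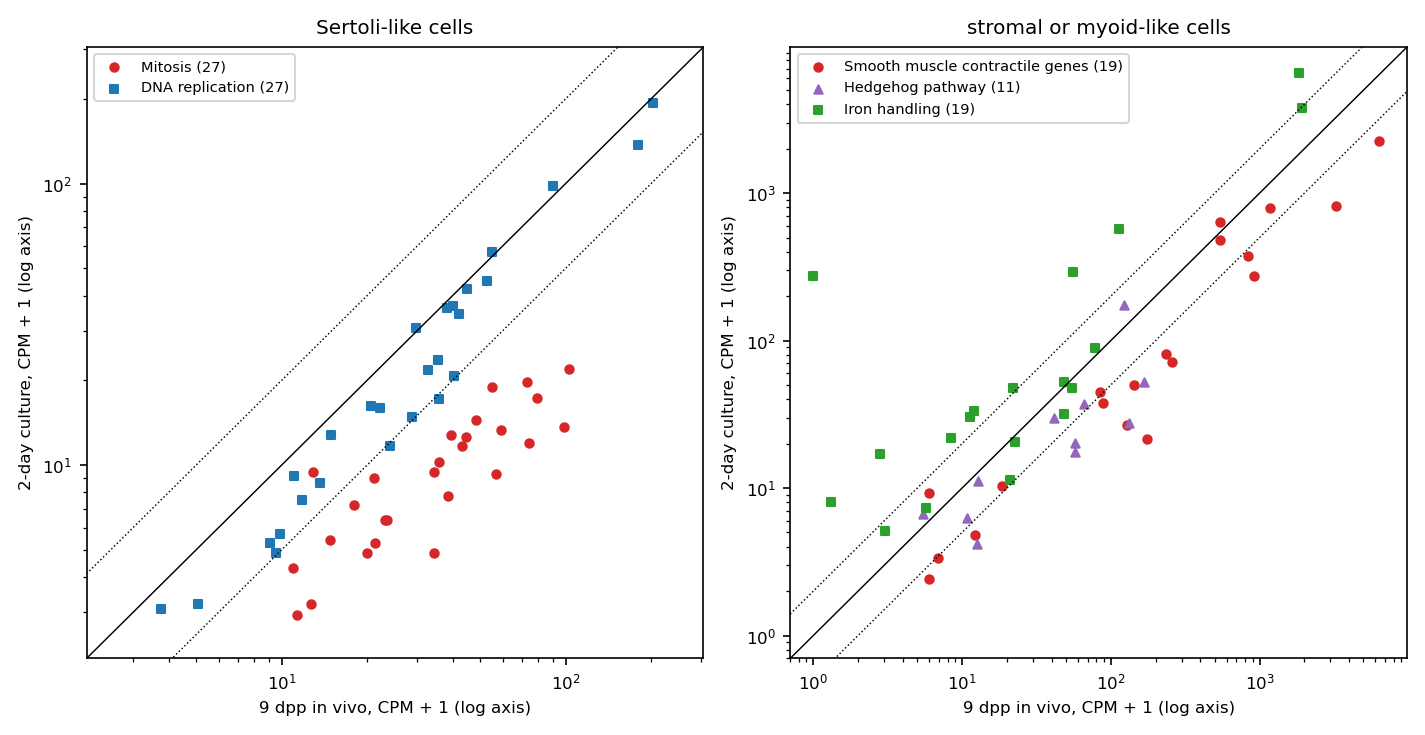
CPM plus 1 at 9 dpp (horizontal) against the 2-day culture (vertical), both log axes, for each tested gene of the named lists, in Sertoli-like cells (left) and stromal or myoid-like cells (right). Solid lines mark equality and dotted lines 2-fold. On the left 26 of 27 mitosis genes lie below the lower dotted line against 2 of 27 DNA replication genes. On the right most contractile and hedgehog genes lie below the solid line and 10 of 19 iron genes above the upper dotted line.

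Hedgehog target genes were lower in the cells around the tubules. Dhh, the desert hedgehog ligand of Sertoli cells, had 169 CPM in the culture's Sertoli-like cells against 264 CPM in vivo, short of 2-fold. In stromal or myoid-like cells, which receive it, 5 of 11 tested hedgehog pathway genes were lower and 0 higher, against 6.84% and 5.85% of all genes tested in that class, with a median of -0.83. Among the direct targets there, Ptch1, the receptor that hedgehog signalling induces, had 51.1 against 166 CPM. Gli1, the effector induced by the pathway, had 19.15 against 56.7 CPM. Hhip, a decoy receptor that limits the ligand, had 26.7 against 131 CPM. The coreceptor Gas1 did not follow, at 174 against 121 CPM. Ptch1 stood at 40.2 and 70.6 CPM in the main culture clusters 1 and 2, and at 121 and 220 CPM in the 9 dpp clusters 8 and 9. Summed over the library the list had 2 lower and 1 higher of 12 (background 3.75% and 4.51%), with a median of -0.58. The stromal or myoid-like share of UMIs was 33.4% in the culture and 16.2% at 9 dpp. In the later pair 0 of 12 tested members were lower, 2 were higher and the median was 0.33. Of 14762 genes tested in both pairs, 553 were higher and 396 lower in the later pair.

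Contractile genes were lower in the cells that wrap tubules and vessels. In stromal or myoid-like cells 13 of 19 smooth muscle genes were lower and 0 higher, against 6.84% and 5.85% of all genes tested there, with a median of -1.33. Acta2, smooth muscle actin, stood at 2247 against 6311 CPM. Cnn1, calponin, had 20.5 against 174 CPM, Actg2, enteric smooth muscle actin, 25.9 against 128 CPM, and Myh11, smooth muscle myosin, 70.7 against 258 CPM. Where these cells clustered matters, since the 9 dpp myoid-like cluster 9 held 650 in vivo and 13 culture cells. In that cluster Acta2 stood at 13314 CPM in vivo. In the culture Acta2 was highest in cluster 15 at 5269 CPM and in cluster 2, which was named stromal, at 5092 CPM, and it was 551 CPM in cluster 1. In the 56 and 55 pericyte-like cells Acta2 fell from 7314 to 869 CPM and Tagln, transgelin, from 2817 to 60.1 CPM. Markers of the class moved as well, since Rgs5, a pericyte regulator of G protein signalling, had 88 UMIs in 36 of 56 culture cells against 1025 UMIs in 54 of 55 cells at 9 dpp. Higd1b was also lower, at 301 against 1043 CPM in this class, while Kcnj8, a potassium channel, was higher at 1399 against 460 CPM. Of all genes tested in this class 6.63% were higher and 11.9% lower. Whether the cells of the class are alike in both libraries was not tested. Summed over the library, of 20 contractile genes only Cnn1 and Actg2 were called lower and Cald1 higher (background 3.75% and 4.51%). Acta2 had 782 against 1097 CPM in these sums.

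Imprinted genes were lower in stromal and Leydig classes. In stromal or myoid-like cells 9 of 16 imprinted genes were lower and 0 higher, where 6.84% and 5.85% of all tested genes were, with a median of -1.15. In Leydig-like cells 7 of 11 were lower and 0 higher, against 8.18% and 4.59% of all genes tested there, with a median of -1.06. Dlk1, a membrane protein of immature stromal cells, had 872 against 2677 CPM in stromal or myoid-like cells. Its level in the main interstitial cluster was 5065 CPM at 9 dpp (cluster 8) and 1328 CPM in the culture (cluster 1). Cdkn1c, an inhibitor of the cell cycle, had in the same cells 59.9 against 186 CPM, and Nnat 15.5 against 74.2 CPM. H19, a noncoding RNA, had 365 against 686 CPM, short of 2-fold. Over the library the list gave 2 lower of 19 (background 3.75%) and a median of -0.11, and -0.77 when both libraries were given the class shares of the 9 dpp library. Of 19 tested in the later pair 4 were higher and 1 lower, with a median of 0.24. In that pair 553 genes were higher and 396 lower of 14762 tested in both pairs.

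**Figure D3:**
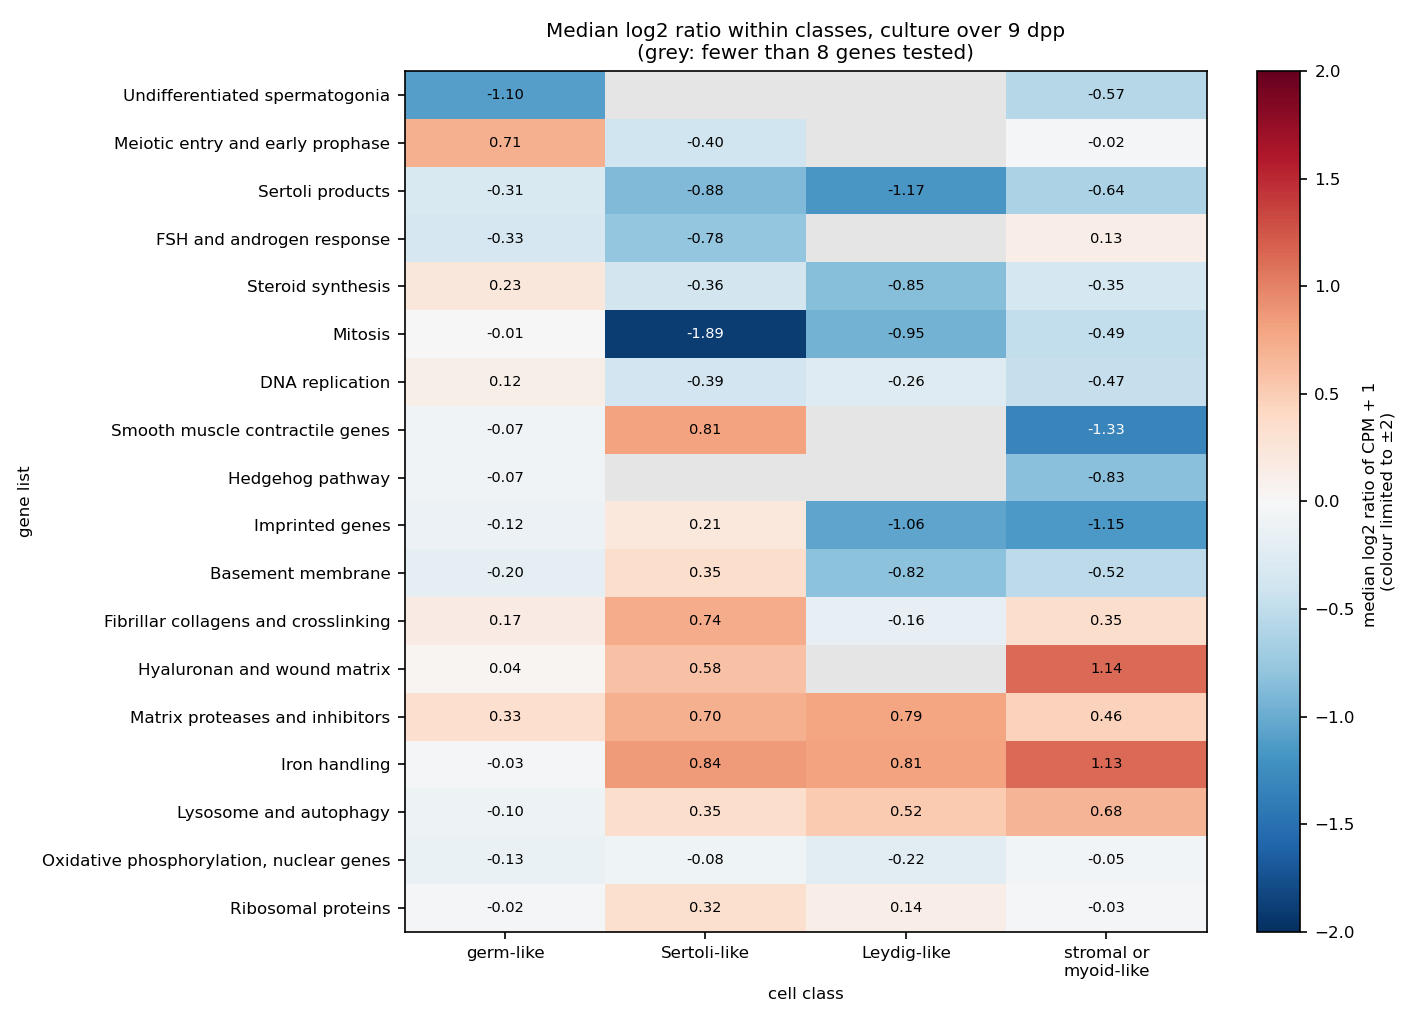
Median log2 ratio of CPM plus 1, 2-day culture over 9 dpp, for 18 gene lists (rows) within 4 cell classes (columns), with red higher and blue lower in culture and the colour limited to 2 either way. The lowest cells are mitosis in Sertoli-like cells at -1.89 and smooth muscle genes in stromal or myoid-like cells at -1.33, and the highest is the hyaluronan and wound list in stromal or myoid-like cells at 1.14. Grey cells had fewer than 8 tested genes and are not drawn.

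Markers of macrophages and of endothelium moved in opposite directions. Of the 10 macrophage markers 7 were at least 2-fold lower in the culture and 0 higher (background 3.75% and 4.51%). Tyrobp and Fcer1g, adaptor proteins of immune receptors, had 3.96 against 16.5 CPM and 8.23 against 23.4 CPM in the library. Mrc1, the mannose receptor of resident macrophages, had 0.740 against 6.796 CPM, and Csf1r, the receptor of the growth factor CSF1, 1.33 against 3.47 CPM. The macrophage-like cluster held 15 culture and 31 in vivo cells, too few for values within it. Csf1, the ligand of that receptor, was higher at 22.4 against 5.11 CPM. In the later pair the 10 markers summed to 298 CPM (7-day culture) against 208 CPM (14 dpp). Of 9 endothelial markers 4 were higher and 0 lower (same background), among them Cldn5, a junction protein of vessels, at 21.98 against 4.10 CPM, and Emcn, endomucin, at 13.8 against 2.99 CPM. Endothelial-like cells were 0.960% of the culture's classed cells and 0.408% of those at 9 dpp.

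The hyaluronan and matrix protease lists had the highest medians outside inflammation and interferon, and the medians of the matrix lists depended on the makeup of the library. Of 17 tested genes of the hyaluronan and wound matrix list 10 were higher and 0 lower, with a median of 1.52, and of 19 matrix proteases and inhibitors 10 were higher and 0 lower, with a median of 1.17, where 4.51% of all genes were higher and 3.75% lower. The fibrillar collagen list had 10 higher and 1 lower of 25, with a median of 0.76. With the 9 dpp class shares given to both libraries the 3 medians became 0.71, 0.53 and 0.27. Elastic fibres and small proteoglycans went from a median of 0.66 to -0.29 under the same weighting.

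Within stromal or myoid-like cells wound genes stayed higher while the collagens mostly did not. There 10 of 17 wound genes were higher and 1 lower, with a median of 1.14, where 5.85% of all tested genes were higher and 6.84% lower. Of 25 fibrillar collagen genes 2 were higher and 0 lower, a share near that background, with a median of 0.35. Timp1 had 1960 CPM against 79.5 CPM, and Spp1 576 against 0.214 CPM. Ptx3, a secreted pentraxin of the hyaluronan matrix, had 64.9 against 2.78 CPM. Cd44, the hyaluronan receptor, had 66.8 against 7.80 CPM, and Thbs1, thrombospondin, 41.3 against 1.39 CPM. Col1a1, the main fibrillar collagen chain, stood at 2097 against 1465 CPM, and Col3a1 at 1600 against 1488 CPM. Lox, which crosslinks collagen, had 140 against 53.7 CPM. Mgp, the matrix Gla protein that inhibits calcification, had 3878 against 743 CPM and Bgn, biglycan, 2913 against 1208 CPM, while the elastin gene Eln had 257 against 762 CPM and Mfap4, a microfibril protein, 706 against 2490 CPM.

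Basement membrane genes differed between classes. In stromal or myoid-like cells 8 of 20 were lower and 3 higher, against backgrounds of 6.84% and 5.85% in that class, with a median of -0.52. Lama2, a laminin chain, had 85.1 against 254 CPM, and the collagen IV chains Col4a3 and Col4a4 had 71.2 against 188 CPM and 147 against 408 CPM. Col15a1 had 119 against 56.4 CPM. In Leydig-like cells 6 of 14 were lower and 0 higher, against backgrounds of 8.18% and 4.59%. Sertoli-like cells had 3 of 16 higher and 0 lower, against 6.26% and 6.31%, with a median of 0.35. In Sertoli-like cells Col4a5, another collagen IV chain, went up from 2.56 to 36.6 CPM. Sparc, a collagen-binding glycoprotein, stood at 8617 against 5337 CPM in stromal or myoid-like and 5041 against 2979 CPM in Sertoli-like cells, short of 2-fold in both.

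**Figure D4:**
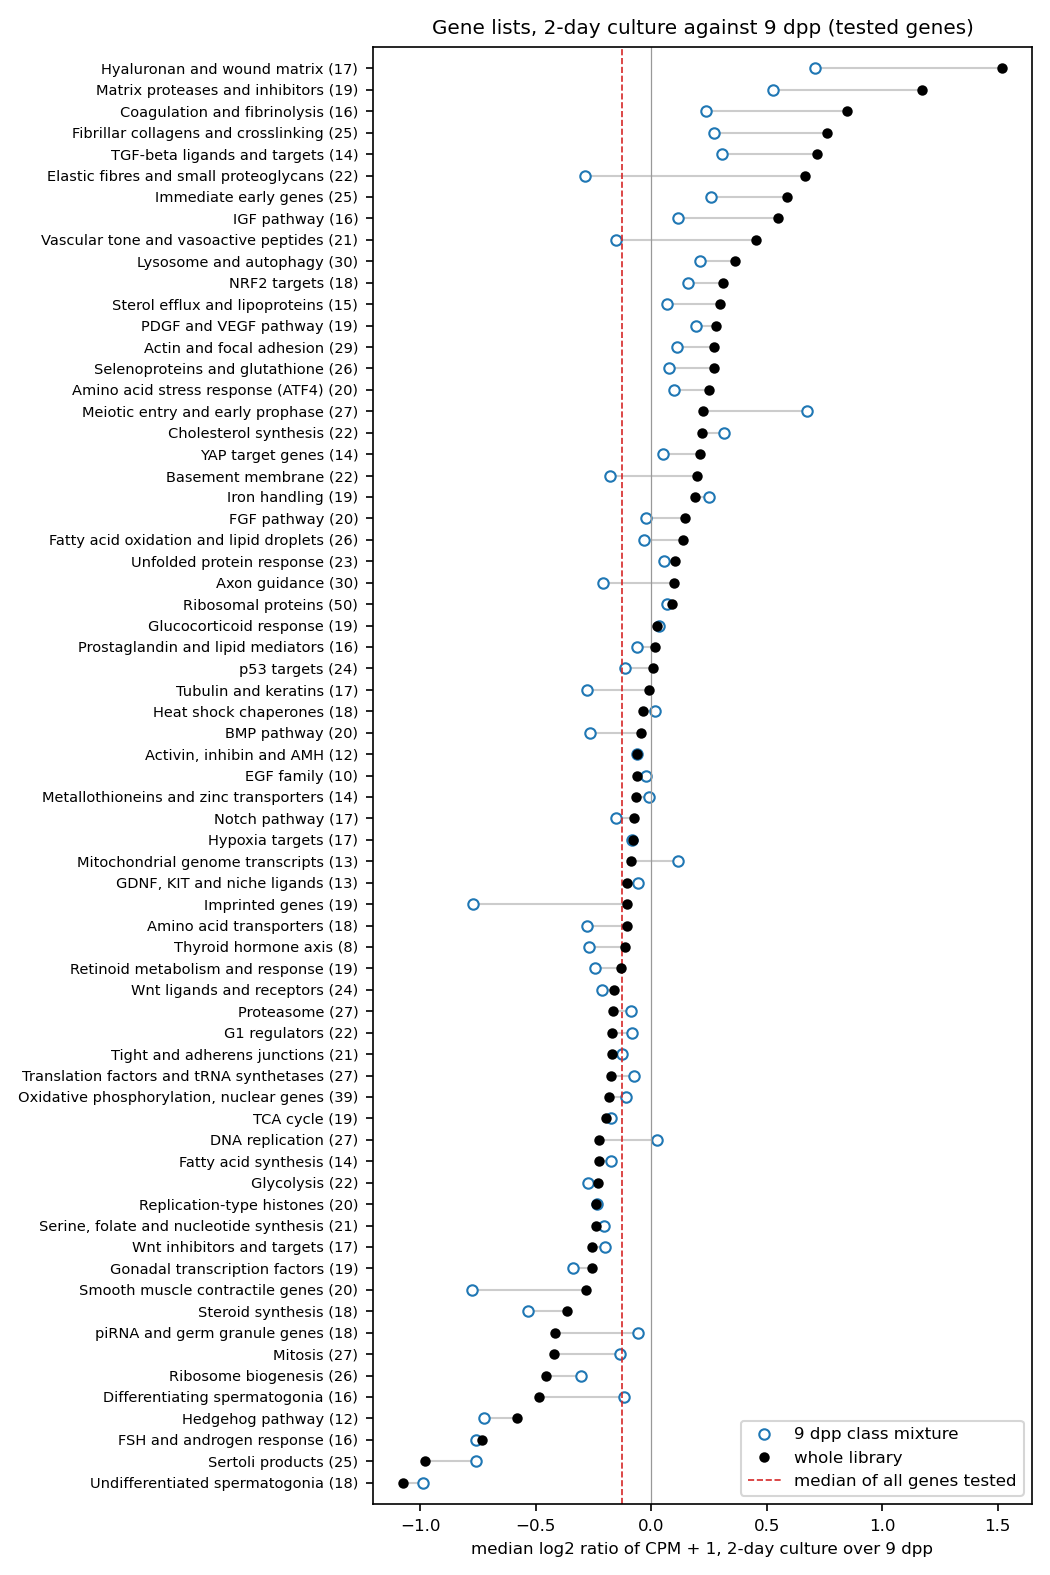
Median log2 ratio of CPM plus 1, 2-day culture over 9 dpp (horizontal), for each gene list outside inflammation and interferon (rows, with the number of tested genes). Black points are whole-library sums, open circles give both libraries the class shares of the 9 dpp library, and the dashed line is the median of all tested genes at -0.13. The hyaluronan and matrix protease lists sit at the top and shift left with the 9 dpp class shares, while undifferentiated spermatogonia (-1.08 and -0.99) stay at the bottom.

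Clotting genes and TGF-beta targets also had high medians in the library that were lower with the 9 dpp class shares. Of 16 tested coagulation and fibrinolysis genes 7 were higher and 2 lower (background 4.51% and 3.75%, as for the other lists here), with a median of 0.85, or 0.24 with the 9 dpp class shares. Plaur, the urokinase receptor, had 12.1 against 0.612 CPM, and F3, tissue factor, which starts clotting, 37.7 against 16.4 CPM. F3 was also higher within Sertoli-like cells, at 103 against 37.8 CPM. Thbd, thrombomodulin, which restrains clotting, was lower at 28.0 against 81.9 CPM, and at 78.5 against 477 CPM in stromal or myoid-like cells. Of 14 TGF-beta ligands and targets 5 were higher and 0 lower, with a median of 0.72, or 0.31 with the 9 dpp class shares. The ligand Tgfb1 had 23.9 against 20.7 CPM. Of 15 sterol efflux and lipoprotein genes 4 were higher and 0 lower, with a median of 0.30, or 0.070 with the 9 dpp class shares. Apoe, a carrier of cholesterol, had 2655 against 881 CPM in Leydig-like cells and 776 against 416 CPM in stromal or myoid-like cells. Cholesterol synthesis genes of Leydig-like cells had 4 lower and 0 higher of 21, against 8.18% and 4.59% of all genes tested there, with a median of -0.64.

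Growth factor binding proteins were higher in separate cell classes. Of 16 tested genes of the IGF pathway 5 were higher and 1 lower (background 4.51% and 3.75%), with a median of 0.55, or 0.12 with the 9 dpp class shares. Igfbp7, which binds IGF and insulin weakly and sits in vessel walls, stood at 2807 against 564 CPM in the library, and at 7105 against 2369 CPM in stromal or myoid-like cells. Igfbp5 had 84.4 against 7.64 CPM. Igfbp3, the main IGF carrier of serum, had 183 against 19.5 CPM, and endothelial-like cells, 66 cells in the culture and 21 in vivo, held 74.3% of its culture UMIs and 5.40% of those at 9 dpp. Igfbp2 was lower, at 59.5 against 126 CPM. The ligand Igf1 had 349 CPM in the culture's stromal or myoid-like cells and 412 CPM in vivo, and the receptor Igf1r 34.6 against 35.4 CPM in the library. In Sertoli-like cells Fst, follistatin, which neutralises activin, went from 1.64 to 45.6 CPM.

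Iron handling genes were higher in several somatic classes. Of 19 tested iron genes 7 were higher and 0 lower in the library (background 4.51% and 3.75%), and in stromal or myoid-like cells 10 of 19 were higher and 0 lower, with a median of 1.13, where 5.85% of all tested genes were higher and 6.84% lower. Sertoli-like cells had 8 of 19 higher and 1 lower, against 6.26% and 6.31% of the genes tested there. Leydig-like cells had 4 of 10 higher and 0 lower, against 4.59% and 8.18%. Fth1, the ferritin heavy chain, stood at 6538 against 1839 CPM in stromal or myoid-like cells and at 3931 against 1110 CPM in Sertoli-like cells. In Leydig-like cells Fth1 had 4955 against 1839 CPM, and in germ-like cells 1103 against 1029 CPM. Germ-like cells had 2 of 17 iron genes higher, Cp and Lcn2, both under 5 CPM, and 1 lower, with a median of -0.03, where 1.31% and 3.35% of all tested genes were called. Steap4, a metalloreductase, had 290 against 55.1 CPM in stromal or myoid-like cells, and Cp, ceruloplasmin, which oxidises iron for export, 568 against 113 CPM. Lcn2, which binds bacterial iron carriers and is also on the inflammation list, had 145 against 0.215 CPM in the library. Tfrc, the transferrin receptor, had 28.8 against 39.7 CPM in the library, 64.0 against 57.6 CPM in germ-like cells and 7.90 against 30.7 CPM in Sertoli-like cells.

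Mt1 and Mt2, metallothioneins that hold zinc and copper, were higher in stromal or myoid-like cells while their library totals stayed within 2-fold, and Mt3, another metallothionein, was lower in the library. These first 2 genes lie next to each other on chromosome 8 and their upstream sequence is shown because both genes moved together in stromal or myoid-like cells. The 250 bases before the annotated start of each gene (RefSeq, GRCm38.p6) were searched on both strands for the core letters of the metal response element, TGCACNC and TGCGCNC, with matches in capitals. The Mt1 window is chr8:94178839-94179088 and the Mt2 window chr8:94172368-94172617, both on the plus strand.
Mt1: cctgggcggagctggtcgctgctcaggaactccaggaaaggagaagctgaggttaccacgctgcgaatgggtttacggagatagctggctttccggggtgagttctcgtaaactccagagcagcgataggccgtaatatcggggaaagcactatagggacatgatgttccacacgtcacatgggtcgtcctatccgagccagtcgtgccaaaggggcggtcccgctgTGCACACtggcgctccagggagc
Mt2: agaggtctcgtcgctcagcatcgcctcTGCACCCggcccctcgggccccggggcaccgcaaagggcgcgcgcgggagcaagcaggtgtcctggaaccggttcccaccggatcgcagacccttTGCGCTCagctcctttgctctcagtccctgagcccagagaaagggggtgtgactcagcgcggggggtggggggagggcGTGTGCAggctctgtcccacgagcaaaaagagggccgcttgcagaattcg
The Mt1 window held 1 match and the Mt2 window 3. Of 32851 promoter windows of this length, 21.4% held at least 1 match and 1.26% at least 3. A match of letters describes the window and is no binding site.

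Over the library the genes stayed close, Mt1 at a ratio of 0.49 and Mt2 at 0.35. In stromal or myoid-like cells Mt1 stood at 1361 CPM in the culture against 135 CPM, and Mt2 at 1342 against 32.0 CPM. Germ-like cells had Mt2 at 1194 against 1405 CPM. Of all classed Mt2 UMIs, germ-like cells held 94.8% at 9 dpp and 45.5% in the culture, and stromal or myoid-like cells 0.662% and 44.9%. Mt2 was high in both main culture clusters of the latter class, at 1134.5 CPM in cluster 1 and 1725 CPM in cluster 2, and under 100 CPM in each of its 9 dpp clusters. Slc39a1, a zinc importer, was higher in the library at 165 against 44.1 CPM, and Mt3 was lower at 52.7 against 125 CPM. Among the 14 tested genes of that list these 2 were the sole calls, 1 in each direction (background 4.51% higher and 3.75% lower).

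Retinoid genes changed at single steps. Of 19 tested, 4 were higher and 1 lower (background 4.51% and 3.75%), with a median of -0.13, as over all genes. Rdh10, which oxidises retinol, had 38.8 against 13.6 CPM, and Dhrs3, which turns retinal back into retinol, 43.6 against 16.9 CPM. Lrat, which stores retinol as esters, had 3.96 against 0.876 CPM. Cyp26b1, the enzyme that destroys retinoic acid, had 8.34 CPM in the culture and 64.4 CPM at 9 dpp, 7.71-fold lower (6.83 to 8.74). In stromal or myoid-like cells it had 15.97 against 298 CPM, and it was low in both culture clusters, at 13.5 and 21.3 CPM. The retinaldehyde dehydrogenases Aldh1a1 and Aldh1a2, which make retinoic acid, had 303 against 268 CPM and 47.5 against 52.2 CPM. Stra8, a retinoic acid target that marks entry into meiosis, had 1279 CPM in the culture's germ-like cells against 611 CPM.

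Germ cells had fewer transcripts of undifferentiated spermatogonia and more of early meiosis. In germ-like cells 10 of 18 undifferentiated genes were lower and 0 higher, against 3.35% and 1.31% of all genes tested there, with a median of -1.10. Nanos3, an RNA-binding protein of early germ cells, had 2.95 against 35.7 CPM. Upp1 had 6.98 against 47.7 CPM, Pou5f1, the pluripotency factor Oct4, 7.14 against 26.4 CPM, and Zbtb16, the stem cell repressor PLZF, 29.4 against 66.4 CPM. Gfra1, the GDNF receptor, had 6.24 against 8.79 CPM, short of 2-fold. Bcl6b had 4.27 against 5.87 CPM. Nanos3, Upp1, Zbtb16 and Pou5f1 were among the leading genes of germ-like cluster 10, which held 606 in vivo cells and 23 culture cells. Most culture germ-like cells were in clusters 0, 5, 6 and 13, and most in vivo ones in clusters 4, 10 and 11. In the later pair 0 of 17 tested members were called and the median was -0.26. Of 14762 genes tested in both pairs, 553 were higher and 396 lower in that pair.

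In the same germ-like cells 6 of 27 genes of meiotic entry were higher and 0 lower, where 1.31% and 3.35% of all tested genes were, with a median of 0.71. Sycp3, a core protein of the synaptonemal complex, had 1421 against 559 CPM, and Meiob, which binds single-stranded DNA in recombination, 39.6 against 9.38 CPM. Dmc1, the meiotic recombinase, had 129 against 59.9 CPM, Prdm9, which sets recombination sites, 41.9 against 19.12 CPM, and Spo11, which makes the breaks, 12.9 against 5.28 CPM. Kit, the receptor of differentiating spermatogonia, was level at 38.0 CPM on both sides. Over the library the early meiosis list had 1 higher and 0 lower of 27, near the 4.51% and 3.75% of all genes tested there. Its library median was 0.22, and 0.67 with the 9 dpp class shares. Dmrtb1, which holds spermatogonia out of meiosis, had 24.1 against 73.8 CPM in germ-like cells. Depth per germ-like cell also differed, with medians of 3501 UMIs in the culture and 10889.5 UMIs at 9 dpp, and its part in the makeup of this class was not tested. The 5 highest gains in germ-like cells were Mgp, Hba-a1, Hbb-bs, Serpina3n and Timp1, at most 89.0 CPM, which are genes of stromal or blood cells. The hemoglobin gene Hba-a1 had 72.9 against 5.84 CPM there, and the share of free RNA in these values was not tested.

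**Figure D5:**
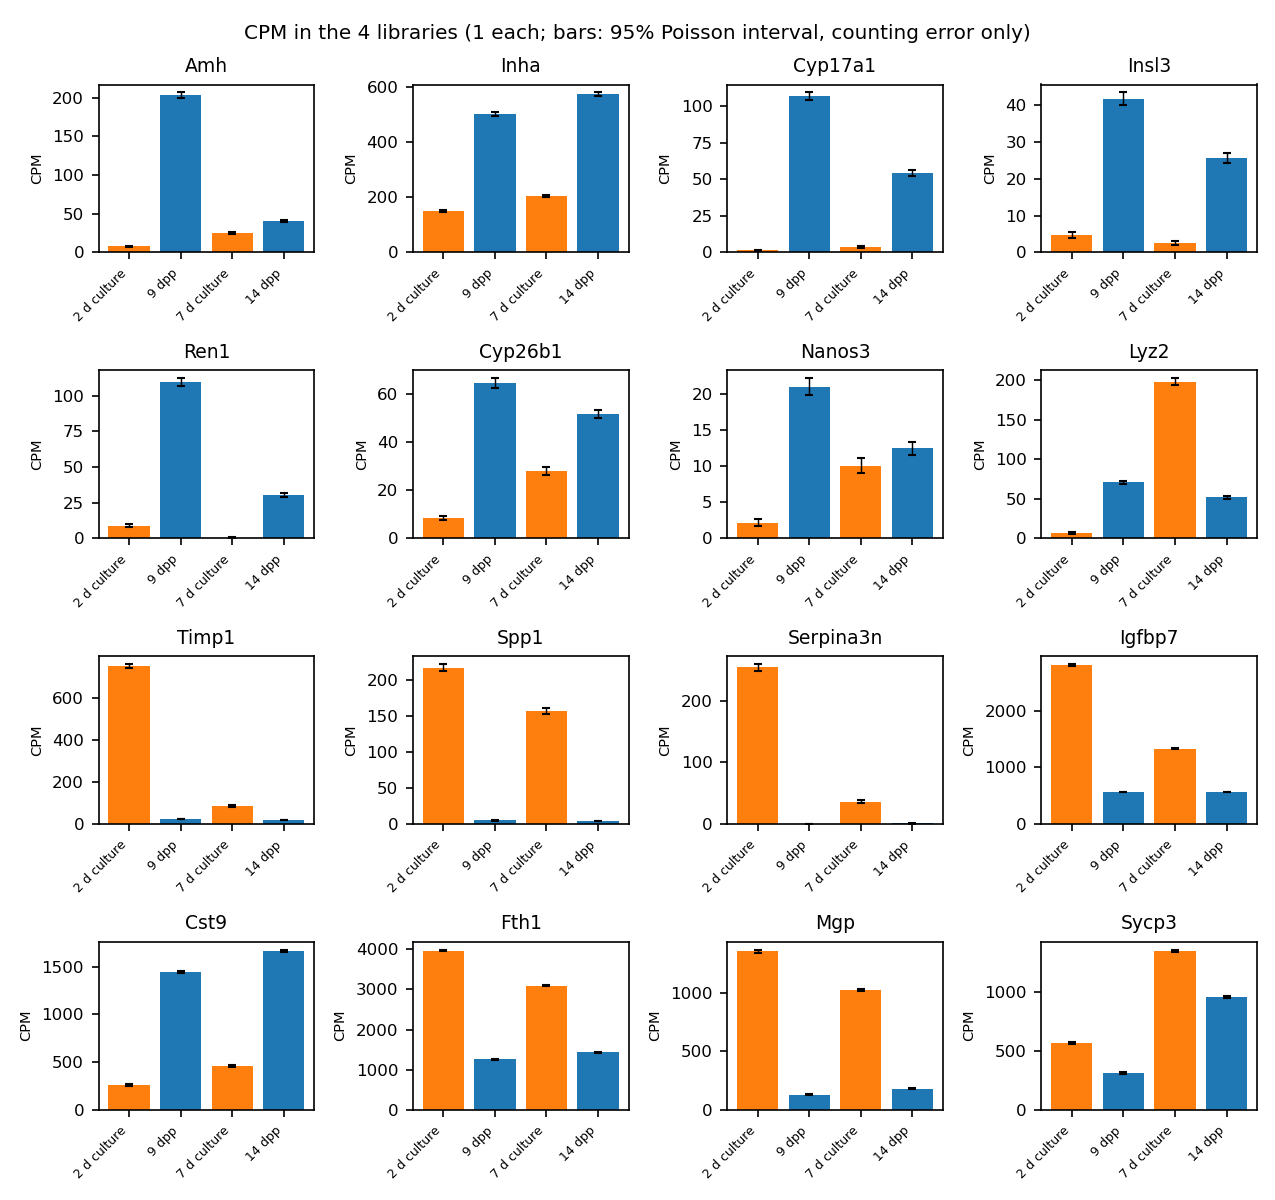
CPM of 16 genes (1 panel each, vertical axis from 0) in the 2-day culture, 9 dpp, 7-day culture and 14 dpp libraries, orange for culture and blue for in vivo, with 95% Poisson intervals for counting error. Amh is at 7.69 and 24.8 CPM in culture against 203 and 40.7 CPM in vivo, and Lyz2 is the sole gene shown that is lower in the first culture (6.54 against 70.5 CPM) and higher in the second (198 against 51.7 CPM).

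Summed over the library, core metabolism and protein turnover genes stayed mostly within 2-fold. None of the 39 nuclear oxidative phosphorylation genes, the 19 TCA cycle genes, the 27 proteasome genes, the 22 cholesterol synthesis genes or the 27 DNA replication genes was at least 2-fold apart, with medians from -0.22 to 0.22. Within Leydig-like cells 6 of 9 fatty acid synthesis genes and 4 of 8 amino acid transporters were lower, and 0 of either list higher. Of all genes tested in that class 8.18% were lower and 4.59% higher. The medians of these lists there were -1.26 and -0.86. Over the library 1 of 22 glycolysis genes, Ldha, was higher, near the 4.51% of all tested genes. Hk2 and Slc16a3, the hexokinase and a lactate exporter, were the 2 lower ones (background 3.75%). Hk2 was lower in stromal or myoid-like cells at 22.4 against 119 CPM and in Sertoli-like cells at 49.3 against 159 CPM. Over the library 1 of 17 hypoxia targets (Adm) was higher and 1 (Ddit4) lower, near the 4.51% and 3.75% of all tested genes. Against the background of 4.51% higher and 3.75% lower, heat shock genes had 2 higher and 0 lower of 18, Hspb8 and Bag3, and the unfolded protein response list had 0 higher and 1 lower of 23, near that background. NRF2 targets, the oxidative stress genes, had 5 higher and 0 lower of 18, Srxn1, Osgin1, Slc7a11, Ugdh and Txn1. Immediate early genes, which respond within minutes to stimuli including tissue dissociation, had 7 higher and 1 lower of 25 with a median of 0.59. In the later pair 17 of 26 were higher and 0 lower, with a median of 1.65. Of 14762 genes tested in both pairs, 553 were higher and 396 lower in that pair. With the 9 dpp class shares the median of the main pair was 0.26. Sertoli-like cells had 12 higher and 0 lower of 23, against 6.26% and 6.31% of all genes tested there. Stromal or myoid-like cells had 5 higher and 4 lower of 25, against 5.85% and 6.84%. Ier3 had 91.5 against 11.03 CPM and Socs3, an inhibitor of cytokine signalling, 76.0 against 11.4 CPM, while Fos had 354 against 250 CPM in this pair and 798 against 178 CPM in the later one.

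Very short transcripts were often lower. Among tested genes whose longest annotated transcript is at most 300 bases, 6 of 14 were at least 2-fold lower and the median was -0.78. From 300 to 500 bases 27 of 138 (19.6%) were lower, with a median of -0.26, and from 1000 to 3000 bases 3.88% of 5902, with a median of -0.08. Snhg9, with a longest transcript of 183 bases, had 4.05 against 73.9 CPM. Bc1, of 168 bases, had 4.05 against 49.7 CPM, and mt-Atp8, of 204 bases, 69.9 against 599 CPM. Rps29 and Rpl38, ribosomal proteins with transcripts of 461 and 457 bases, were the 2 lower genes among 50 ribosomal protein genes. That share was near the 3.75% of all tested genes, 0 were higher and the list median was 0.09. Rps29 had 1665 against 4068 CPM in the library and was lower in each of the 5 classes measured, for instance at 1447 against 3306 CPM in germ-like cells. The later pair had a median of -0.69 for the shortest group. Lower calls thus move with transcript length, whose part in them was not tested.

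Of 14762 genes tested in both pairs, 637 were higher and 558 lower in this pair, and 553 and 396 in the later pair. Among the 637 higher genes, 325 (51.0%) were also at least 2-fold higher in the 7-day culture. Among the 558 lower genes, 204 (36.6%) were also lower there. These counts include genes of the inflammation and interferon lists. Only 4 and 3 genes crossed to the opposite call. In the later pair Cyp17a1 had 3.77 against 54.2 CPM, and Ren1 0.367 against 30.2 CPM. Inha had 205 against 574 CPM and Cst9 460 against 1669 CPM. Hsd3b1 was lower in the first pair alone, at 34.4 against 97.1 CPM and then 83.9 against 74.5 CPM. Timp1 had 85.3 against 17.9 CPM in the later pair and Spp1 157 against 3.94 CPM. List medians of the hedgehog genes (-0.58 and 0.33), the mitosis genes (-0.42 and -0.07), the cholesterol synthesis genes (0.22 and -0.21) and the early meiosis genes (0.22 and -0.10) are among those that differed between the main and the later pair, and whether such differences exceed replicate error was not tested.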

How the data were processed

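The authors deposited raw UMI counts per gene and barcode, with feature and barcode lists, for 4 libraries (Chromium 3′ v2 per the labels, Cell Ranger 3.0.2 and mm10 per the submitters' processing notes). Filter settings upstream are not given in the sources used here. From these counts, barcodes under 500 genes or over 20% mt- UMIs were dropped. UMIs were summed over identifiers with the same symbol (31017 symbols) and scaled to CPM. Ratios are log2 of CPM plus 1, and a gene needed 50 or more UMIs in both libraries together. Intervals are exact Poisson or binomial at 95% and cover counting error only. For classes, Scrublet calls (253 and 143) were removed and both libraries clustered jointly (scanpy 1.11.5, Leiden resolution 1, 30 components, 20 neighbours, 2000 variable genes). Stromal and myoid clusters were merged. Classes needed 50 cells a library. Alternatives used edgeR 4.0.16 and DESeq2 1.42.0 scaling factors only, with no test. The ratio code was tested on simulated data. Members and lists were chosen with earlier results of these data known. Genes named by rule were the 15 highest and 15 lowest outside mt- genes, predicted symbols and the inflammation and interferon lists, 4 called genes and the most abundant gene of each list, 5 highest and 5 lowest per class, and markers. Other list members named were chosen after their values were seen.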

Additional observations from a re-analysis of the deposited data

Results flagged for a closer look

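Lyz2 and Hsd17b1 were called in opposite directions in the 2 pairs. Lyz2, the lysozyme of macrophages, had 6.54 against 70.5 CPM in the first pair (2-day culture, 9 dpp) and 198 against 51.7 CPM in the later one (7-day culture, 14 dpp), so its log2 ratio was 5.16 lower in the first pair (difference -5.16). Hsd17b1, a Sertoli-like cell gene here, had 3.85 against 34.0 CPM and then 11.7 against 3.32 CPM, a difference of -4.40. These differences were not tested, since each group is 1 library.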

How the results depend on the processing

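No paired analysis was possible because each group is 1 library and the labels carry no replicate numbers, and leaving out a replicate was not possible either. Adding 0.1 to CPM gave 1057 genes at least 2-fold lower, and adding 10 gave 273 higher and 135 lower. A minimum of 500 UMIs gave 427 higher and 351 lower, and the class shares of the 9 dpp library gave 446 higher. The median ratio of all genes was -0.0080 with edgeR TMM factors and 0.00 with DESeq2 size factors. Among list medians, mitochondrial genome transcripts turned from -0.09 to 0.046 with TMM factors, 0.055 with DESeq2 factors, 0.049 with each cell weighted equally and 0.11 with 9 dpp class shares. YAP targets turned to -0.00015 without doublet calls and -0.027 with equal cells, and PDGF and VEGF genes to -0.019 with equal cells. With 9 dpp class shares DNA replication turned to 0.023, elastic fibres to -0.29 and vascular tone to -0.15. In Leydig-like cells the mitosis median turned to 0.89 under separate clustering of the libraries. Apart from the class share weighting, which works by construction through cell makeup, the cause was not tested. Over the library, each pairing of a list with one of these and other settings was set against limits for that list. The limits are the medians of its genes' lower and upper counting limits, not an interval of the list median itself. Within them stayed 740 pairings, and 147 moved past them. The 10 library medians given above changed sign where the limits of the main value exclude 0. Others with limits that hold 0 changed sign too with 9 dpp class shares, for instance basement membrane to -0.18 and axon guidance to -0.21. FGF genes turned to -0.021 and fatty acid oxidation to -0.032 in the same way. Depth limits genes of few UMIs, and a barcode of the culture held fewer UMIs than one at 9 dpp. The settings within classes, among them the one without the shallow Sertoli-like cluster 12, and the one without transcripts of at most 500 bases were chosen after seeing the data.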
